A study of Mus musculus with 8 samples.

Results

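The genes described here are 8 transcription factor genes that pattern the telencephalon and cortex of the embryo: Fezf1, Fezf2, Emx1, Emx2, Sp8, Dmrta2, Dlx2 and Barhl2. They were taken by symbol from a deposited expression table of 46406 genes, in which each has 1 entry. The table gives the expression of mouse anterior neural progenitor cells (AntNPC), which were grown from embryonic stem cells and serve as a culture model of early forebrain tissue, in 8 poly(A) RNA sequencing libraries. The 4 wild-type (WT) libraries came from the E14 stem cell line. The other 4 came from E14 cells of genotype PE Lhx5(-109)-/-, from which CRISPR-Cas9 and a pair of guide RNAs had removed a poised enhancer (PE) of Lhx5. Of these null libraries, 2 came from clone 1 and 2 from clone 2, each grown from single selected cells. WT and null cells went through the same serum-free differentiation, with 10 ng/ml bFgf at first, 5 µM of the WNT inhibitor Xav939 from day 2, and an end point at day 5. Each null line is 1 clone and the WT libraries carry no clone label, so an effect of the deletion and an effect of deriving a line cannot be told apart. The samples are named biological replicates, but nothing ties them to separate cultures, so p-values measure the spread between these libraries.

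The telencephalon, the front end of the neural tube, forms the cerebral cortex dorsally and the basal ganglia ventrally. Its early regions are set by transcription factors that respond to FGF8 from the anterior midline and to BMP and WNT signals from the dorsal midline, and that restrain one another's domains. Fezf1 and Fezf2 encode zinc finger repressors of the rostral forebrain, Emx1 and Emx2 are cortical homeobox genes, and Sp8 is a zinc finger gene of the anterior midline. Dmrta2 is a DM-domain gene needed at the cortical hem, Dlx2 is a homeobox gene of the ventral telencephalon, and Barhl2 is a homeobox gene of the diencephalon and dorsal midline.

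Lhx5, the gene whose enhancer was removed, was at 15.0 to 17.5 FPKM in WT and at 0.854 to 1.90 FPKM in null. FPKM counts fragments per length of gene and per number of mapped fragments, so levels of different genes can be compared per length. Library sums ran from 518491 to 528726 FPKM, and the number of reads in each library is unknown. Clone 1 replicate 2 stood apart in RNA composition: the non-polyadenylated RNA Rn7sk was at 250.2 FPKM there and at 8.05 to 28.4 FPKM in the other libraries. Markers of other brain regions were present as well. Of 10 midbrain and hindbrain markers 7 passed the filter of a mean of 1 FPKM, led by Wnt1 at 43.4 to 177 FPKM. Otx2, a gene of forebrain and midbrain, was at 159 to 222 FPKM. The label of the group therefore names where these factors act in the embryo and does not show that the culture was telencephalon.

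In WT cells the genes fell into a high and a low class. Fezf1 was the highest at 35.7 ± 0.771 FPKM (SD, n = 4), followed by Fezf2 at 26.6 ± 2.89, Sp8 at 20.1 ± 2.56 and Emx2 at 17.7 ± 1.69 FPKM. Dmrta2 stood at 3.94 ± 0.405 FPKM. Emx1 at 0.796 ± 0.235, Barhl2 at 0.711 ± 0.161 and Dlx2 at 0.183 ± 0.0433 FPKM were close to the floor of detection. Neighbours in this order did not overlap over the 4 WT libraries except Sp8 with Emx2 and Emx1 with Barhl2. The 3 low genes had a mean under 1 FPKM over the 8 libraries and were left out of the test across genes, so 5 of the 8 were tested among 14521 genes. Mean reads in WT, as listed in the authors' deposited table, were 2913 for Sp8, 2727 for Fezf1, 2013 for Fezf2, 1084 for Emx2 and 369 for Dmrta2, but only 50.3 for Barhl2, 35.4 for Emx1 and 13.8 for Dlx2.

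**Figure D1:**
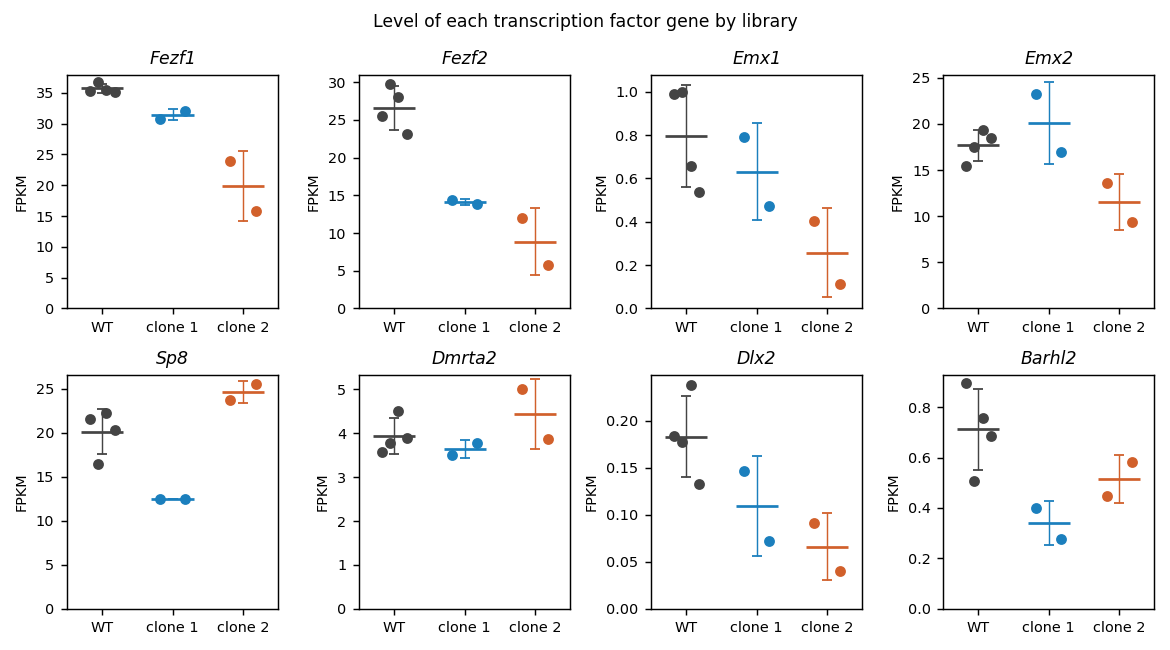
Level of each of the 8 genes (y axis, FPKM, from 0) in WT, clone 1 and clone 2 (x axis). Points are libraries, horizontal lines are means and error bars are SDs (n = 4, 2 and 2). Fezf1 and Fezf2 are below every WT library in both clones, and Sp8 is below WT in clone 1 and above WT in clone 2.

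The start regions of 4 genes are shown because they stand for the patterns described below: Fezf1 and Fezf2 were lowest in clone 2, Sp8 differed in opposite directions, and Dmrta2 stayed near its WT level. Each line runs 5′ to 3′ on the gene's strand and ends at or before a RefSeq start site, without bases in annotated exons (RefSeq, GRCm38.p6). The windows are chr6:23248363-23248514 (minus strand) for Fezf1, chr14:12345960-12346115 (minus strand) for Fezf2, chr12:118846079-118846328 (plus strand) for the first of 3 Sp8 starts, and chr4:109977814-109978024 (plus strand) for Dmrta2. Capitals mark matches on either strand to 5 short motifs. The letters GGGCGG are the GC box bound by SP family factors. The letters CCAAT are the box of that name, found before many genes. The letters TATAAA are the core of the TATA box. The letters TAATCC are a homeodomain site of the OTX type, and TAATTA is the common homeodomain core. No printed matches overlap one another.
Fezf1: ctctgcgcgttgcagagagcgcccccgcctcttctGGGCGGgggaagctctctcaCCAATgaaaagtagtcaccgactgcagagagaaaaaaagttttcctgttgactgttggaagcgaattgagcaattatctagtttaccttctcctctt
Fezf2: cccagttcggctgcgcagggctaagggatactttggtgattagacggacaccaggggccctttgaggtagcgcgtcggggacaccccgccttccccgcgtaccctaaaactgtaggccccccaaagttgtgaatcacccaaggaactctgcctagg
Sp8: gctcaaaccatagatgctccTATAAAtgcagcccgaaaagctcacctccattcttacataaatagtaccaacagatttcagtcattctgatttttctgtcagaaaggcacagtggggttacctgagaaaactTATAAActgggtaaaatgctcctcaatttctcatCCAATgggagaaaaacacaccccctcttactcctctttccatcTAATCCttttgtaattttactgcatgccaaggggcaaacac
Dmrta2: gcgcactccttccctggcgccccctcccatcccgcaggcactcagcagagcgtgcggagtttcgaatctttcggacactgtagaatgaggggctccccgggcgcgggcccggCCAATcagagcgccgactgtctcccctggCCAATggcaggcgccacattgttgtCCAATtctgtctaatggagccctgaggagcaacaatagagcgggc

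All 8 genes matched the RefSeq table, with 10 start sites in all. Over the whole 250 bases before a start, CCAAT was found 3 times before Fezf1 (1 of them in the printed stretch), 3 times before Dmrta2, once before the first Sp8 start and not before Fezf2, against 33.8% of all 32851 promoter windows with at least 1 match. Emx2, Dlx2 and the second Sp8 start had 1 CCAAT match each. GGGCGG was found once each before Fezf1 and Fezf2, where the match before Fezf2 reaches into an annotated exon and is not printed, and is present in 32.7% of all windows. It was also found 4 times for Emx1, 3 times before Barhl2 and 2 times for Emx2. Dlx2 and the second Sp8 start had 1 GGGCGG match each. TATAAA was found 2 times before the first Sp8 start and before no other member (12.4% of all windows). TAATTA was found only before the third Sp8 start (4.84% of all windows), and TAATCC only before the first (6.25%). The ratio of observed to expected CpG was 0.849 before Fezf1, 0.635 before Fezf2 and 0.812 before Dmrta2, but 0.104 before the first Sp8 start, against a median of 0.374 over all windows. It was 0.842 for Emx1 and 0.850 for Emx2, whose windows lie wholly in annotated exons, 0.890 before Dlx2 and 1.03 before Barhl2, and 1.17 before the second Sp8 start and 0.388 before the third. A ratio of at least 0.6 was found in 34.0 percent of all windows. A match is a description of the letters and shows no binding.

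Fezf2 (ENSMUSG00000021743, chromosome 14, 12342094 to 12348189, GRCm38), which in the cortex specifies neurons that project below it, was lower in every null library. It stood at 25.5, 29.8, 28.0 and 23.2 FPKM in WT, at 14.4 and 13.8 FPKM in clone 1 and at 12.0 and 5.73 FPKM in clone 2. The null libraries lay below all WT libraries, and the clone 2 libraries below both of clone 1. The mean was 53.0 percent of WT in clone 1 and 33.4 percent in clone 2. On log2(FPKM + 1), the scale of all fold changes here, clone 2 fell by 1.55 (SE 0.26, limma adjusted p = 0.0193). In clone 1 the log2 fold change was -0.86 (SE 0.26) with a limma adjusted p = 0.0744, which missed the threshold of 0.05 in the fit of 3 groups, where the spread between the clone 2 libraries enters the error of every comparison. Fitted on WT and clone 1 alone, the same change had a limma adjusted p = 0.00517. The difference between the clones was -0.69 (95% interval -1.42 to 0.038, limma adjusted p = 0.117).

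Fezf1 (ENSMUSG00000029697, chromosome 6, 23245044 to 23248362), the close relative of Fezf2 known for the olfactory system and forebrain, was the most even member in WT, at 35.3, 36.8, 35.5 and 35.2 FPKM. It was at 30.8 and 32.1 FPKM in clone 1 and at 23.9 and 15.9 FPKM in clone 2. Again all null libraries lay below WT, here by a small margin in clone 1. Clone 2 fell by 0.84 (SE 0.13, limma adjusted p = 0.0106), to 55.7 percent of the WT mean. Clone 1 was at 88.1 percent, with a log2 fold change of -0.18 (95% interval -0.48 to 0.13, limma adjusted p = 0.385). On WT and clone 1 alone the limma adjusted p was 0.0425. Fezf1 was lower in clone 2 than in clone 1 (log2 difference -0.66, limma adjusted p = 0.0110), a call lost without clone 1 replicate 2 (limma adjusted p = 0.0620) and in a fit of the clones alone (limma adjusted p = 0.0917).

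Pooled over lines, neither Fezf gene passed the test of null against WT. The log2 fold change was -1.21 for Fezf2 (95% interval -1.80 to -0.62, limma adjusted p = 0.370) and -0.51 for Fezf1 (95% interval -0.96 to -0.053, limma adjusted p = 1.00). Of the 5 tested members 0 passed limma, where 0.0551 percent of all tested genes did (0.0482 percent lower and 0.00689 percent higher), and 2 had an unadjusted p under 0.05, where 4.74 percent did. Of the 8 fits that each left out 1 library, Fezf2 passed in 1. That fit lacked clone 2 replicate 2 and gave a log2 fold change of -0.94 (limma adjusted p = 0.0333). Fezf2 did not pass with a correlation allowed within each line (limma adjusted p = 0.9999). Nor did it pass with the mean of the clones in the fit of 3 groups (limma adjusted p = 0.0918). In the authors' deposited table Fezf2 had a p of 0.000196, which adjusted here over 28134 genes with reads gave 0.0278, and 0.782 percent of those genes passed. For Fezf1 the authors' deposited table gave a p of 0.0181 (0.696 adjusted). Fezf1 and Fezf2 were the 2 of 5 tested members whose null libraries all lay below WT, as 3.22 percent of all tested genes did. In bulk RNA, fewer cells of a type and less RNA per cell cannot be told apart, here and below.

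**Figure D2:**
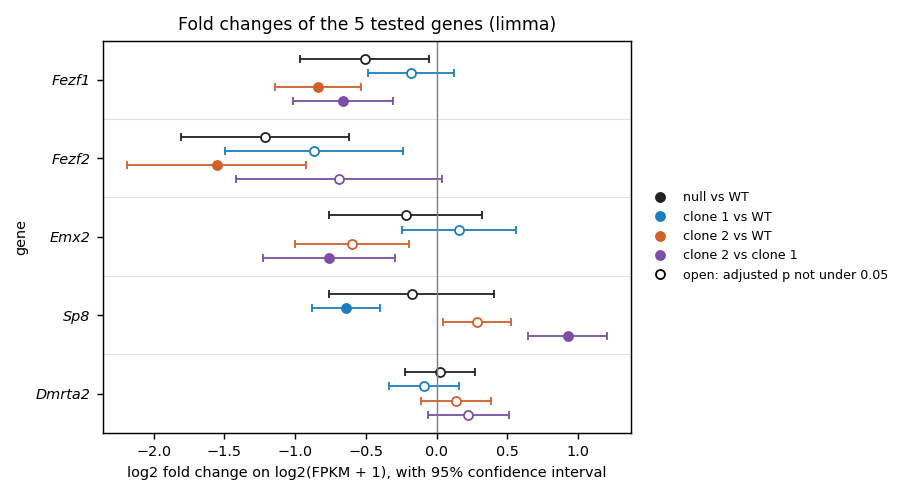
Log2 fold change (x axis, on log2(FPKM + 1)) of the 5 tested genes (y axis) in 4 comparisons (colours), with 95% confidence intervals from limma. Filled points had an adjusted p under 0.05. Fezf1 and Fezf2 are filled in clone 2 against WT, Sp8 in clone 1 against WT, and Fezf1, Emx2 and Sp8 in the comparison of the clones.

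The Fezf genes were also compared as a ratio within each library. Fezf1 was 1.24 to 1.52 times Fezf2 in WT, 2.14 and 2.33 times in clone 1, and 1.99 and 2.77 times in clone 2. The ratio thus stood above every WT library in both lines, including clone 1, in which Fezf1 itself differed little from WT. Fezf2 was also lower relative to Emx2, with ratios of 1.25 to 1.70 in WT and 0.611 to 0.882 in null, and relative to Dmrta2, with ratios of 5.95 to 7.86 in WT and 1.48 to 4.13 in null. A ratio within a library does not depend on how that library was scaled. For each of these 3 ratios the exact two-sided permutation test of null against WT gave p = 0.0286, the smallest that 4 against 4 libraries allow. The test treated libraries as interchangeable and took no account of the lines they came from. Over the 10 pairs of tested members the adjusted value was 0.0952, and the other 7 pairs overlapped between null and WT. These ratios were examined after the levels had been seen. All 3 contain Fezf2, whose null libraries already lay below WT, so they restate that difference and are not separate results. The share of all gene pairs that separate in this way was not computed.

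**Figure D3:**
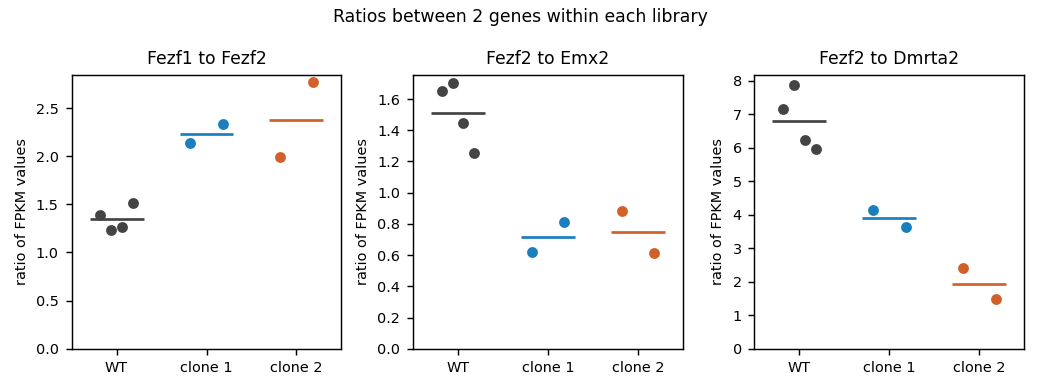
Ratio of the FPKM values of 2 genes within each library (y axis, from 0) in WT, clone 1 and clone 2 (x axis). Points are libraries and lines are means. The Fezf1 to Fezf2 ratio lies at 1.24 to 1.52 in WT and at 1.99 to 2.77 in null, and the ratios of Fezf2 to Emx2 and to Dmrta2 lie lower in null than in WT.

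Emx2 (ENSMUSG00000043969, chromosome 19, 59458372 to 59465357), which sets caudal and medial identity in the cortex, separated the clones. It was at 15.4, 17.5, 19.4 and 18.5 FPKM in WT, at 23.2 and 16.9 FPKM in clone 1 and at 13.6 and 9.38 FPKM in clone 2. Clone 1 overlapped WT, whereas both clone 2 libraries lay below WT and clone 1. Clone 2 stood at 65.0 percent of WT, with a log2 fold change of -0.60 (SE 0.17, limma adjusted p = 0.0603). It passed after rescaling (limma adjusted p = 0.0445) and on WT and clone 2 alone (limma adjusted p = 0.0434). Clone 1 had a log2 fold change of 0.16 (95% interval -0.24 to 0.57, limma adjusted p = 0.554), which turned to -0.055 without clone 1 replicate 1. Between the clones Emx2 was lower in clone 2 by a log2 difference of -0.76 (limma adjusted p = 0.0202), a call lost without clone 1 replicate 1 (limma adjusted p = 0.0843), without clone 2 replicate 2 (limma adjusted p = 0.0942) and in a fit of the clones alone (limma adjusted p = 0.0992). The antisense gene Emx2os, which overlaps Emx2, was at 0.555 to 0.615 FPKM in WT, 0.807 and 0.955 FPKM in clone 1 and 0.421 and 0.318 FPKM in clone 2. The sources used here do not state strand-aware counting, so reads of the partners cannot be told apart.

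Its relative Emx1 (ENSMUSG00000033726, chromosome 6, 85187438 to 85204462), a marker of cortical progenitors, was barely detected. WT libraries were at 0.990, 1.00, 0.656 and 0.539 FPKM, clone 1 at 0.790 and 0.472 FPKM, and clone 2 at 0.403 and 0.113 FPKM. Both clone 2 libraries lay below WT and clone 1, as was so for 22.7 and 27.8 percent of tested genes in that order. The exact two-sided permutation test of null against WT gave p = 0.114.

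Sp8 (ENSMUSG00000048562, chromosome 12, 118846329 to 118852576), which acts with FGF8 at the anterior midline, differed from WT in opposite directions in the null lines. It was at 21.6, 16.5, 22.2 and 20.3 FPKM in WT, at 12.5 and 12.5 FPKM in clone 1 and at 23.8 and 25.6 FPKM in clone 2. Clone 1 lay below every WT library and clone 2 above every one. Clone 1 fell by 0.64 (SE 0.11, limma adjusted p = 0.00896), to 62.0 percent of WT. This call was lost without clone 1 replicate 2, with a log2 fold change of -0.64 and a limma adjusted p = 0.0699. Clone 2 was at 122 percent of WT (log2 fold change 0.29, 95% interval 0.047 to 0.53, limma adjusted p = 0.104). The clones differed by 0.93 (SE 0.12, limma adjusted p = 0.000908), a 1.97-fold higher mean FPKM in clone 2, and this difference passed in every fit run, including each with 1 library left out. In null against WT the directions offset each other, with a log2 fold change of -0.18 (limma adjusted p = 1.00). WT replicate 2, the lowest WT library for Sp8, was also the lowest WT library for Fgf8, at 1.29 FPKM against 2.37 to 3.08 FPKM in the other WT libraries. This was not particular to Sp8 and Fgf8. The same library was the lowest in WT for Wnt1 (85.0 FPKM) and En1 (25.6 FPKM). It was the highest for Hesx1 (36.7 FPKM) and Pou5f1 (30.4 FPKM).

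Dmrta2 (ENSMUSG00000047143, chromosome 4, 109978053 to 109983687) was the member closest to its WT level. It was at 3.57, 3.79, 4.51 and 3.89 FPKM in WT, at 3.50 and 3.78 FPKM in clone 1 and at 5.01 and 3.88 FPKM in clone 2. Only clone 1 replicate 1 and clone 2 replicate 1 lay outside the WT range. The log2 fold change was 0.024 in null (95% interval -0.22 to 0.27), -0.088 in clone 1 (95% interval -0.34 to 0.16) and 0.14 in clone 2 (95% interval -0.11 to 0.38). The limma adjusted p was 1.00, 0.618 and 0.437 in that order. These intervals allow changes of up to about 0.38 on this scale.

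The last 2 members were the lowest. Dlx2 (ENSMUSG00000023391, chromosome 2, 71543408 to 71546754) was at 0.184, 0.177, 0.239 and 0.133 FPKM in WT, 0.147 and 0.0718 FPKM in clone 1 and 0.0913 and 0.0407 FPKM in clone 2. Barhl2 (ENSMUSG00000034384, chromosome 5, 106452523 to 106458166), 13.98 Mb from Lhx5 on the same chromosome, was at 0.896, 0.508, 0.755 and 0.686 FPKM in WT, 0.401 and 0.278 FPKM in clone 1 and 0.448 and 0.583 FPKM in clone 2. Clone 2 lay below WT for Dlx2 and clone 1 for Barhl2, as 22.7 and 29.2 percent of tested genes did in those clones. The exact two-sided permutation test of null against WT gave p = 0.0571 for each. For these genes and Emx1, 0 of 3 had null libraries all below WT, as 1.87 percent of genes with a mean of 0.1 to 1 FPKM did. In the authors' deposited table the unadjusted p was 0.0169 for Dlx2, 0.0201 for Barhl2 and 0.0504 for Emx1. Counting Fezf1 and Fezf2, 4 of the 8 members had an unadjusted p under 0.05 there, where 4.79 percent of all genes with reads did. The members were chosen with earlier results of these data known, so this count is no test of the group. Adjusted here as above, the authors' deposited p was 0.677 for Dlx2 and 0.740 for Barhl2, and only Fezf2 of the members passed. With 6.59 mean reads in null in the authors' deposited table, Dlx2 is too thinly covered for its fold to be read.

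By comparison, 1 of the 5 tested members was called lower in clone 1 (Sp8), against 11.4 percent of all tested genes, and 0 were called higher, against 4.16 percent. The excess of lower calls over all genes depended on scaling, with 604 higher and 1662 lower as deposited and 959 higher and 980 lower after rescaling by median ratios. In clone 2, 2 were called lower (Fezf1 and Fezf2), against 6.96 percent, and 0 were called higher, against 7.06 percent. Between the clones, 2 were lower in clone 2 (Fezf1 and Emx2), against 15 percent, and 1 was higher (Sp8), against 24.9 percent. Over all genes this split was 3618 higher and 2176 lower as deposited and 2959 higher and 2930 lower after rescaling. In that contrast 39.9 percent of all tested genes passed in either direction. By range alone, 3 of the 5 tested members (Fezf1, Fezf2 and Sp8) lay below every WT library in clone 1, as 29.2 percent of tested genes did. In clone 2, 3 of the 5 (Fezf1, Fezf2 and Emx2) lay below, against 22.7 percent, and 1 (Sp8) lay above, against 24.7 percent. Both clone 2 libraries lay below both of clone 1 for 3 of the 5 (Fezf1, Fezf2 and Emx2), against 27.8 percent, and above for Sp8 and Dmrta2, against 40.1 percent. Among the members under the filter, Barhl2 lay below WT in clone 1, Emx1 and Dlx2 lay below WT in clone 2, and clone 2 lay below clone 1 for Emx1 and above it for Barhl2. Shares for genes at these low levels were not computed by clone. Among tested genes the matching shares were the 22.7 to 40.1 percent given above. Each clone is compared with the same WT libraries.

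The genes whose levels followed each member most closely over the 8 libraries were named by Pearson's r of log2(FPKM + 1), as a description only, since all libraries share lines and scaling. For Fezf1 the closest was Pax6, an eye and forebrain regulator (r = 0.989), at 36.2 to 39.8 FPKM in WT, 32.1 and 30.3 FPKM in clone 1 and 17.8 and 11.1 FPKM in clone 2, followed by H1f0 (r = 0.986). For Fezf2 it was Rax, an eye field gene (r = 0.987), at 6.10 to 8.54 FPKM in WT, 3.10 and 3.91 FPKM in clone 1 and 2.15 and 0.668 FPKM in clone 2, followed by Ldhd (r = 0.982). Sp8 was followed by Tssc4 (r = 0.996) and Cnot11 (r = 0.993), Emx2 by Pik3c3 (r = 0.982) and Acot6 (r = 0.973), and Dmrta2 by Gdpd5 (r = 0.964) and Tmem231 (r = 0.928).

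Counts of list genes that fell or rose in a clone, here and for the lists below, are read against all tested genes. Of these, 11.4 percent were called lower and 4.16 percent higher in clone 1, where the excess of lower calls depended on scaling. In clone 2 the shares were 6.96 percent lower and 7.06 percent higher. Among 18 genes listed as relatives of the members, which include homeobox genes of other families such as Gbx2, 5 were tested. The Dlx genes Dlx1, Dlx3, Dlx4, Dlx5 and Dlx6 all stayed under 1 FPKM in every library. In clone 1, 3 of the 5 tested relatives fell and 0 rose. Their median change was -0.62 (log2), against -0.048 over all tested genes. Dmrt3, which shares cortical roles with Dmrta2, fell from 10.1 to 12.3 FPKM in WT to 6.79 and 6.70 FPKM (limma adjusted p = 0.00375), Sp5 by 0.62 (limma adjusted p = 0.0262) and Gbx2 by 1.08 (limma adjusted p = 0.0068). In clone 2, 2 fell and 2 rose. Dmrt3 fell there too, to 8.19 and 8.82 FPKM (limma adjusted p = 0.0253), and Barhl1, the relative of Barhl2, fell by 1.23 (limma adjusted p = 0.0372). Sp5, the WNT-responsive relative of Sp8, rose by 0.75 (limma adjusted p = 0.0177) and Gbx2, a hindbrain and thalamic homeobox gene, by 1.73 (limma adjusted p = 0.00178). Sp8 had the same signs in the clones, although it missed the threshold in clone 2.

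Of 21 pallial and telencephalic transcription factors 12 were tested. In clone 1, 5 fell, against 11.4 percent of all tested genes, and 1 rose, against 4.16 percent (median -0.35). In clone 2, 3 fell, against 6.96 percent, and 2 rose, against 7.06 percent (median 0.13, against 0 over all tested genes). Lhx2, a selector gene of the cortex, fell from 10.2 to 12.3 FPKM in WT to 5.84 and 6.49 FPKM in clone 1 (limma adjusted p = 0.0460) and to 7.25 and 3.58 FPKM in clone 2 (limma adjusted p = 0.0251). Nr2f2, an orphan receptor gene of caudal cortex, fell by 0.84 in clone 1 (limma adjusted p = 0.00037) and rose by 0.42 in clone 2 (limma adjusted p = 0.00757). In clone 1 the Notch effector gene Hes1 fell by 0.40 (limma adjusted p = 0.00381) and Meis2 by 0.50 (limma adjusted p = 0.0158). In clone 2 Pax6 fell by 1.39 (limma adjusted p = 0.0050), while in clone 1 its limma adjusted p was 0.232. Tcf7l1, a repressor of WNT targets, fell by 0.33 in clone 2 (limma adjusted p = 0.0159). Of 16 ventral telencephalic factors 2 were tested. Sox6, one of them, fell by 0.45 in clone 1 (limma adjusted p = 0.0286) and had a log2 fold change of 0.32 in clone 2 (limma adjusted p = 0.0837).

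**Figure D4:**
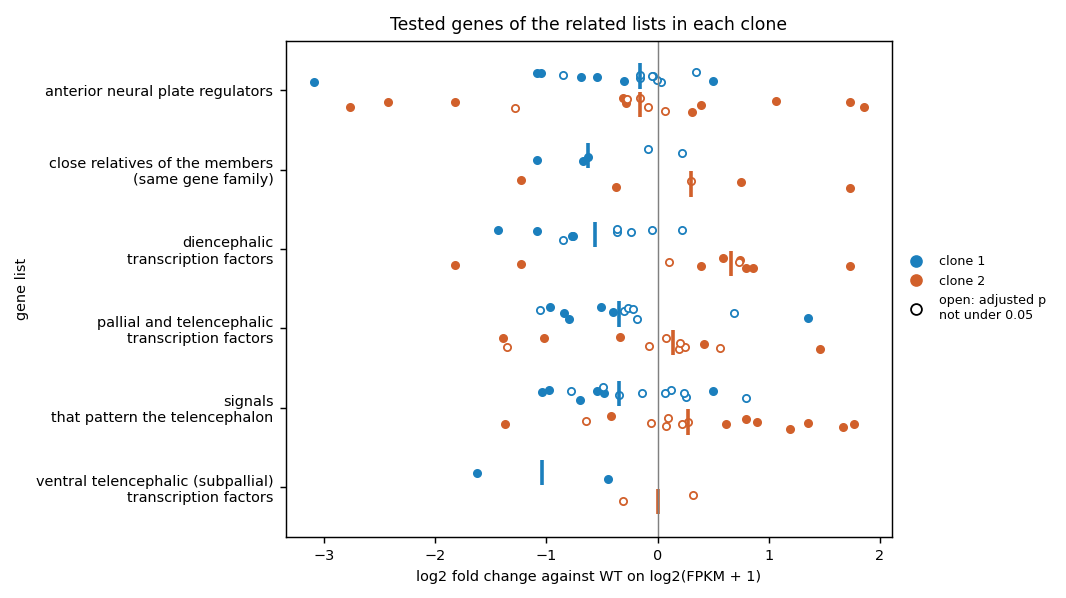
Log2 fold change against WT (x axis) of each tested gene of the 6 related lists (y axis) in clone 1 and clone 2 (colours), with the list's median as a vertical bar. Filled points had an adjusted p under 0.05. In clone 1 the medians of all 6 lists lie below 0, whereas in clone 2 the median of the anterior neural plate regulators lies below 0, that of the ventral factors at 0.0038 and the other 4 above 0.

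The 20 diencephalic factors gave 10 tested genes, of which 4 fell in clone 1 (median -0.56) and 6 rose and 2 fell in clone 2 (median 0.66). Irx1 rose by 0.80 (limma adjusted p = 0.00862) and Irx2 by 0.74 (limma adjusted p = 0.0125) in clone 2, where Rax fell by 1.82 (limma adjusted p = 0.00921). Tal2 fell by 1.43 in clone 1 (limma adjusted p = 0.00743), Dbx1 by 0.76 (limma adjusted p = 0.00932) and Pou3f3 by 0.77 (limma adjusted p = 0.0168). Among 16 anterior neural plate regulators 15 were tested, with 6 lower and 1 higher in clone 1 (median -0.16) and 5 lower and 5 higher in clone 2 (median -0.16), Lhx5 among the lower ones in each. In clone 1 Sox1 fell by 0.55 (limma adjusted p = 0.00584) and Sox3 by 0.30 (limma adjusted p = 0.00665). In clone 2 Zic1 rose by 1.86 (limma adjusted p = 0.00397) and En1 by 1.06 (limma adjusted p = 0.00676). Some genes, such as Gbx2, stand in several lists. In null against WT, Lhx5 was the only gene of the 6 lists that passed.

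Several signals that pattern the telencephalon also differed by clone. Of 27 listed 15 were tested, with 5 lower and 1 higher in clone 1 (median -0.35) and 7 higher and 2 lower in clone 2 (median 0.27). Wnt3a, the signal of the cortical hem, fell by 0.98 in clone 1 (limma adjusted p = 0.00918) and rose by 1.35 in clone 2 (limma adjusted p = 0.00409). Wnt1 fell by 1.04 (limma adjusted p = 0.00184) and rose by 0.80 (limma adjusted p = 0.00453) in the same order. Wnt5a rose by 1.19 (limma adjusted p = 0.00709) and Rspo2, an enhancer of WNT signalling, by 1.77 (limma adjusted p = 0.00862) in clone 2. Sfrp1, a WNT antagonist, fell by 0.48 in clone 1 (limma adjusted p = 0.00463), where the WNT potentiator Rspo1 rose by 0.50 (limma adjusted p = 0.0277). These changes were not particular to clone 1. Pooled over both clones, the log2 fold change was -0.45 for Sfrp1 and 0.56 for Rspo1, so each had the same sign in clone 2. Fgf8 was at 1.10 and 1.57 FPKM in clone 1 and at 6.98 and 12.5 FPKM in clone 2, beside 1.29 to 3.08 FPKM in WT. Shh, the ventral signal, was listed at 0 in all 8 libraries.

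The counts of list genes that differed between the clones are read against 24.9 percent higher and 15 percent lower over all tested genes. In clone 2 relative to clone 1, 7 of 12 pallial genes were higher and 2 lower, with Nr2f2 higher by 1.26 (limma adjusted p = 4.13e-05), Nr2f1 higher by 2.52 (limma adjusted p = 0.00225) and the proneural gene Neurog2 lower (-2.70, limma adjusted p = 0.00351). Of 5 relatives 4 were higher and 1 lower, with Sp5 higher by 1.37 (limma adjusted p = 0.000722) and Barhl1 lower (-1.45, limma adjusted p = 0.0142). The 10 diencephalic genes gave 8 higher and 2 lower, the 15 anterior neural plate regulators 7 higher and 5 lower, the 15 signals 6 higher and 2 lower, and the 2 ventral factors 2 higher and 0 lower. Gbx2 was higher by 2.81 (limma adjusted p = 9.75e-05), Zic1 by 2.91 (limma adjusted p = 0.000253) and Wnt3a by 2.34 (limma adjusted p = 0.000196). In null against WT the 4 list genes with the smallest adjusted p after Lhx5 did not pass. They were Sfrp1, with a log2 fold change of -0.45 (limma adjusted p = 0.0875), Rspo1 with 0.56 (limma adjusted p = 0.259), Lhx2 with -0.91 (limma adjusted p = 0.270) and Dmrt3 with -0.52 (limma adjusted p = 0.301).

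Some markers of other cell identities also differed between the clones and WT. The counts below are read against all tested genes, of which 4.16 percent were called higher and 11.4 percent lower in clone 1. In clone 2 these shares were 7.06 and 6.96 percent. The summed level of 10 midbrain and hindbrain markers was 153 to 188 FPKM in WT, 101 and 111 FPKM in clone 1 and 293 and 325 FPKM in clone 2, and of the 7 tested, 3 fell in clone 1 and 5 rose in clone 2. The summed level of 10 pluripotent cell markers was 100.3 to 127 FPKM in WT. It was 194 and 174 FPKM in clone 1 and 84.9 and 74.6 FPKM in clone 2, with Dnmt3b most of it throughout. Of these markers 6 of 6 tested were higher in clone 1 and 2 lower in clone 2. The markers under the filter had lower means in clone 1 than in WT. These were 1.00 against 1.25 FPKM for Zfp42 and 0.217 against 0.503 FPKM for Esrrb. For Klf4 they were 0.288 against 0.492 FPKM, and for Tdgf1 0.129 against 0.169 FPKM. For 10 surface ectoderm markers the summed level was 37.2 to 53.8 FPKM in WT, 83.4 and 72.0 FPKM in clone 1 and 43.0 and 30.0 FPKM in clone 2. The 3 called higher in clone 1 were Cdh1, Epcam and Cldn6. Krt14 was listed at 0 in every library, and Krt5 and Trp63 stayed under 0.026 FPKM. Of the midbrain and hindbrain markers, Hoxb1 was listed at 0 in WT and clone 2. For 9 neuronal markers the summed level was 73.0 to 76.5 FPKM in WT, 75.6 and 66.0 FPKM in clone 1 and 61.1 and 60.6 FPKM in clone 2. The 10 neural progenitor markers summed to 483 to 505 FPKM in WT, 463 and 426 FPKM in clone 1 and 501 and 553 FPKM in clone 2, with 4 lower in clone 1 and 5 higher and 1 lower in clone 2. The 9 neural crest markers summed to 11.4 to 13.0 FPKM in WT, 17.7 and 14.6 FPKM in clone 1 and 15.5 and 14.2 FPKM in clone 2. Different markers among the 4 tested were higher, Ets1 and Msx1 in clone 1 and Pax3 and Pax7 in clone 2. Under the filter, Sox10 was at 1.04 to 1.23 FPKM in WT and lower in null, at 0.700 to 0.933 FPKM. Tfap2b was at 0.259 to 0.506 FPKM in WT, 0.221 and 0.162 FPKM in clone 1 and 1.69 and 1.32 FPKM in clone 2. The 7 anterior neural markers summed to 267 to 315 FPKM in WT, 286 and 255 FPKM in clone 1 and 201 and 172 FPKM in clone 2, with 2 of 6 tested lower in clone 1 and 5 lower in clone 2. Of 7 endoderm markers 6 stayed under 1 FPKM in every library, as did all 7 mesoderm markers, of which Msgn1 was listed at 0. The part of these identities in the levels of Fezf1, Fezf2, Emx2 and Sp8 was not tested.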

How the data were processed

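Poly(A) RNA libraries were made with TruSeq v2, per the labels' protocols. The authors deposited 1 table, with FPKM values for 8 libraries and their mean per genotype. It also holds the authors' mean read counts per genotype, a signal whose scaling is not stated, the authors' fold (ratio) of null to WT, and a deposited p-value with no stated test. The submitters' processing notes name TopHat2, Cufflinks, DESeq2, SAMtools and FastQC, with neither version nor role, and GRCm38 and mm10 as builds. Depth per library is unknown, since no counts were used here.

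Groups were taken from the cell line label. WT columns match sample titles, while null columns are numbered within a clone and were tied to their clone. Genes with a mean of at least 1 FPKM over 8 libraries were tested on log2(FPKM + 1) with limma 3.58.1 (trend and robust moderation) in R 4.3.3, with Benjamini-Hochberg adjustment and a threshold of 0.05. Null against WT used 2 groups, and the clone comparisons a fit of 3 groups. Members under the filter had an exact permutation test (SciPy 1.17.1). It permuted single libraries and took no account of the lines they came from. The fit was tested on simulated data with independent libraries. For null against WT the simulated clones did not differ, so that test does not cover the differences between clones seen here. Coordinates are from GENCODE M21. Alternatives were rescaling by median ratios, a pseudocount of 0.1, no filter, other fits and leaving out each library. Each member is named in each comparison, with up to 4 called genes per related list by smallest adjusted p, and the 2 most alike genes by Pearson's r. Otx2, Fgf8, the Dlx genes and some single markers of cell identities were added after values were seen. Some listed genes are not reported here. The members and lists were chosen with earlier results of these data known. Foxf1 and Tubb3 were not matched by symbol.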

Additional observations from a re-analysis of the deposited data

Results flagged for a closer look

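The null lines, which carry the same deletion, differed from each other for 3 of the 5 tested genes by limma's contrast of clone 2 with clone 1. The log2 difference was 0.93 for Sp8 (limma adjusted p = 0.000908), with both clone 2 libraries higher, -0.76 for Emx2 (limma adjusted p = 0.0202) and -0.66 for Fezf1 (limma adjusted p = 0.0110), each with both clone 2 libraries lower. In this contrast 39.9 percent of all tested genes passed. In clone 2, replicate 2 was at 47.6 percent of replicate 1 for Fezf2, 66.3 percent for Fezf1, 68.7 percent for Emx2 and 28.0 percent for Emx1, but at 108 percent for Sp8.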

How the results depend on the processing

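Null against WT gave 8 genes past the threshold, 5 after rescaling, 3 with a correlation allowed within each line, 106 with the mean of the clones in the fit of 3 groups, and 3 to 8 when a library was left out. The related lists gave 1 gene, or 8 with the mean of the clones, and 1 in each fit without a library. The members gave 0, and 1 (Fezf2) without clone 2 replicate 2. Clone 1 gave 2266 genes, 1506 without a filter and 438 to 3091 when a library was left out. It gave 26 list genes (8 to 29) and 1 member (0 to 3), or 3 members when fitted with WT alone. Clone 2 gave 2036 genes, 1160 without a filter and 172 to 2425 without a library, the lowest without clone 2 replicate 2. It gave 31 list genes (7 to 33) and 2 members (2 to 3). The clones differed in 5794 genes, 3674 when fitted alone and 3099 to 5904 without a library, in 41 list genes (34 to 41) and in 3 members (2 to 4), or 1 when fitted alone.

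In fits of only the groups compared, Fezf1 (-0.18) and Fezf2 (-0.86) passed in clone 1 and Emx2 (-0.60) in clone 2, the last also after rescaling (-0.60), while Fezf1 (-0.66) and Emx2 (-0.76) no longer passed between the clones. The cause was not tested. Without 1 library, Fezf2 ranged over -1.33 to -0.94 in null, -0.93 to -0.81 in clone 1, -2.03 to -1.08 in clone 2 and -1.17 to -0.21 between the clones, where it passed without clone 2 replicate 1. Fezf1 ranged over -0.63 to -0.30 in null, -0.21 to -0.15 in clone 1, -1.12 to -0.56 in clone 2 and -0.94 to -0.38 between the clones. Emx2 ranged over -0.42 to -0.0079 in null, -0.055 to 0.38 in clone 1, -0.84 to -0.35 in clone 2 and -1.01 to -0.51 between the clones. Sp8 ranged over -0.73 to -0.59 in clone 1, 0.20 to 0.34 in clone 2 and 0.88 to 0.98 between the clones. Dmrta2 changed sign in null (-0.063 to 0.078, with -0.013 without WT replicate 1) and in clone 2 (-0.014 to 0.29). Dlx2 ranged over -0.15 to -0.099, and reached an exact permutation p = 0.0286 in 1 of the 8 fits. Fezf1 and Fezf2 passed in clone 2 in all 8 fits without a library. A pseudocount of 0.1 changed no call of a member. No paired analysis was possible because null replicate numbers restart in each clone and match no single sample title. Low FPKM limits Emx1, Dlx2 and Barhl2.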

Other observations

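Gsx2, a homeobox gene that acts above Dlx2 in the ventral telencephalon, was singled out after its values were seen. It was at 1.25 and 1.79 FPKM in clone 2, 0.700 and 0.709 FPKM in clone 1 and 0.594 to 0.904 FPKM in WT, whereas Dlx2 itself was at 0.0913 and 0.0407 FPKM in clone 2. Gsx2 was not tested, because its mean over the 8 libraries was under 1 FPKM.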
